A study of Brassica rapa subsp. pekinensis with 6 samples.

Results

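The *BrHSP70* genes Bra001457 and Bra038734 and the gene *BrMPSR1-1* (Bra012441) act in protein quality control, and they were examined in shoots of Chinese cabbage (*Brassica rapa* ssp. *pekinensis*) during a change of temperature. They were chosen by gene name and identifier, as 3 of the 41173 genes on the Br135K microarray. The names are those of the study, which lists these genes together with values from the same samples, so the choice is not independent of them. All 3 had a probe intensity (PI) over 500 in at least 1 sample, the minimum used here for a detected gene, which 26948 genes passed. The samples came from 2 inbred lines, Kenshin, of subtropical origin, and Chiifu, of temperate origin. Plants of each line were grown for about 3 weeks at 22 °C, then kept at 12 °C for 2 days, and then moved to 28 °C for 3 h, and shoots were sampled at the end of each step. There was 1 sample for each line and temperature, 6 in all. The sample labels give no further treatment, but the design text of the series speaks of withheld water, which neither the labels nor the methods mention, and this was not resolved. A line is a single inbred genotype here, shoots of several plants were taken, with pooling not described, and the array probes were designed on Chiifu sequence. The study describes a repeated experiment summarised by means, but the labels hold a single sample for each condition. A deposited value may thus be a mean whose spread is not given, and no value below has an error between replicates.

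HSP70 proteins are ATP-dependent chaperones that bind exposed hydrophobic stretches of unfolded proteins and help them to fold, work together with J-domain co-chaperones, and hand aggregated proteins to HSP101-type disaggregases. In *Arabidopsis*, the gene assigned to both *BrHSP70* copies (AT3G12580) encodes a cytosolic, heat-inducible HSP70, and its transcript is widely used as a readout of ambient temperature. MPSR1 is known from *Arabidopsis* as a RING-type E3 ubiquitin ligase that recognises misfolded proteins in the cytoplasm and marks them for degradation by the proteasome. Refolding and removal are thus both represented. Transcription of many heat shock genes is driven by heat shock factors such as HSFA2.

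PI is a linear intensity, 1 value per gene, summarised by the authors from overlapping probes near the 3′ end of the gene. Median PI over all genes lay between 965 and 1034 in the 6 samples, and the random-sequence control lay between 26.9 and 30.5. The deposited table also holds 14 features of the marker genes *sGFP* and *Bar*, which the labels do not describe in these plants, and these read between 9.70 and 1517. All 18 values of the 3 genes lay above the highest marker feature of the same sample. *BrACT2* (Bra022356), an actin gene used by the study as a reference, had a PI of 21990.3, 20625 and 19834 in Kenshin and 22061, 19934 and 19307 in Chiifu at 22, 12 and 28 °C, a range of 1.14-fold.

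The *BrHSP70* pair was high in Kenshin at every temperature, whereas in Chiifu it was well below Kenshin at 22 and 12 °C. At 28 °C the lines were nearly level for Bra038734, while Bra001457 was still 1.61-fold higher in Kenshin. In Chiifu at 22 and 12 °C, between 50.4% and 63.1% of all genes had a lower PI than these copies. In Kenshin, Bra001457 had a PI of 9758 at 22 °C, of 6732 after the cold at 12 °C and of 13032 after warming to 28 °C. In Chiifu the same gene had a PI of 1559.6 at 22 °C, of 2512 after the cold and of 8099 after warming. The lowest Kenshin value of this gene thus exceeded the Chiifu values at 22 and 12 °C and lay below that of Chiifu at 28 °C. Bra038734 had a PI of 6488 in Kenshin at 22 °C, of 4093 after the cold and of 7597 after warming. In Chiifu its PI was 1049 at 22 °C, then 1159 after the cold and 7871 after warming. For this copy the Chiifu value at 28 °C was the highest of all 6 samples. In whole shoots, more cells that express a gene and more RNA per cell cannot be told apart.

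*BrMPSR1-1* followed another course, with a trough at 12 °C and nearly the same level of both lines at 28 °C. Its PI in Kenshin was 2633 at 22 °C, then 1404 after the cold and 6957 after warming. Its PI in Chiifu was 4542 at 22 °C, then 1527 after the cold and 6769.5 after warming. Both lines were lowest at 12 °C and highest at 28 °C, and at 22 °C Kenshin was below Chiifu, the reverse of the *BrHSP70* pair. From RT-PCR the study reports higher basal levels in Kenshin for *BrHSP70* and also for *BrMPSR1*, whose copy its text does not give there. The array values of *BrMPSR1-1* at 22 °C go the other way, with a ratio of Kenshin to Chiifu of 0.580. Those of the second copy, *BrMPSR1-2*, do so too, with a ratio of 0.349. The difference between array and RT-PCR was not resolved.

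**Figure D1:**
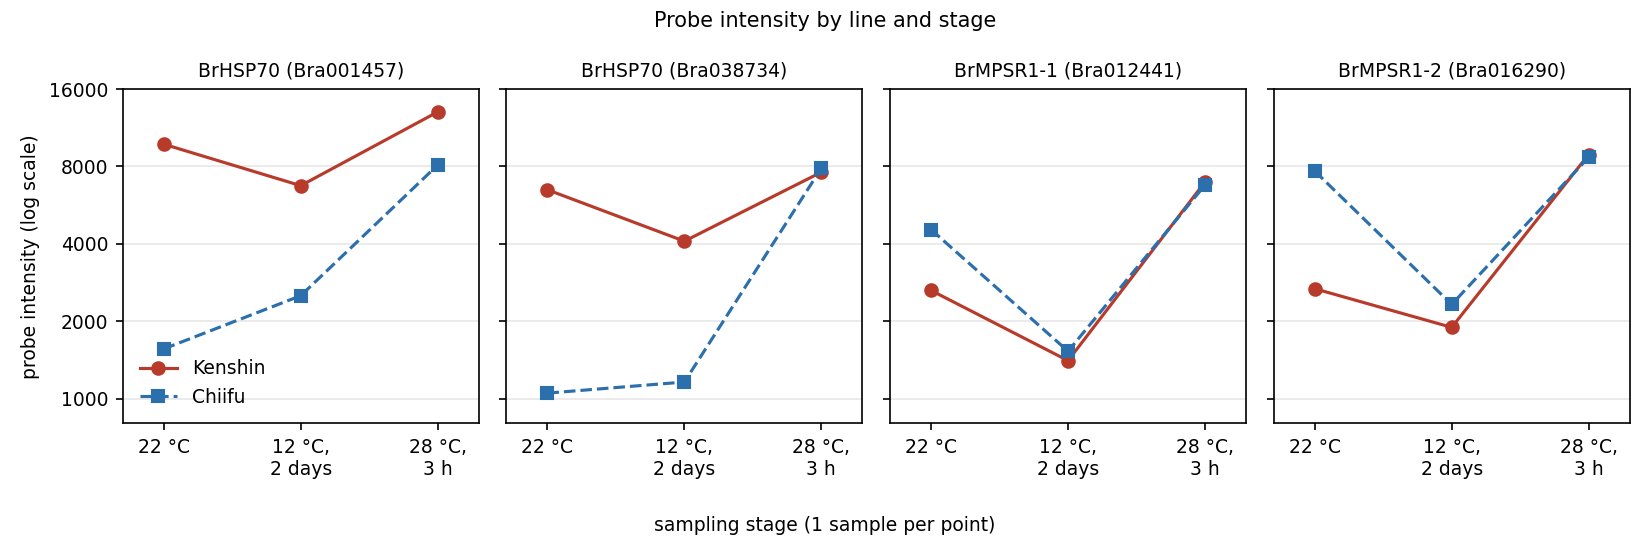
PI (log axis) at 22 °C, after 2 days at 12 °C and after a further 3 h at 28 °C, for the *BrHSP70* pair, *BrMPSR1-1* and the second copy *BrMPSR1-2*, with 1 sample per point and no error bars. Red circles are Kenshin and blue squares are Chiifu. Both *BrHSP70* copies lie 6.26-fold and 6.18-fold higher in Kenshin than in Chiifu at 22 °C, and the *BrMPSR1* copies dip at 12 °C and meet at 28 °C.

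The order of the 6 samples also set the genes apart. For Bra001457 it ran from Kenshin at 28 °C through Kenshin at 22 °C, Chiifu at 28 °C, Kenshin at 12 °C and Chiifu at 12 °C to Chiifu at 22 °C. Neighbours in that order differed by 1.20-fold to 1.61-fold, apart from Kenshin at 12 °C, which was 2.68-fold above Chiifu at 12 °C. For Bra038734 the same break stood between Kenshin at 12 °C and Chiifu at 12 °C, at 3.53-fold, while Chiifu and Kenshin at 28 °C were 1.04-fold apart. For *BrMPSR1-1* the samples at 28 °C were 1.03-fold apart and those at 12 °C 1.09-fold apart, and both samples at 22 °C lay between these pairs, Kenshin 1.73-fold below Chiifu and 1.72-fold above Chiifu at 12 °C. With 1 sample per condition there is no spread by which to separate neighbours. The whole range over the 6 samples was 8.36-fold for Bra001457, 7.50-fold for Bra038734 and 4.96-fold for *BrMPSR1-1*.

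The first question was how the genes differed between lines before any treatment. At 22 °C, Bra001457 was 6.26-fold and Bra038734 6.18-fold higher in Kenshin than in Chiifu. With 50 added to every intensity, which damps ratios of low values, they were 6.09-fold and 5.95-fold. These 2 of the 3 genes passed the cutoff of a 2-fold excess in Kenshin, as did 8.55% of all detected genes. A ratio at least as high as that of Bra001457 was found for 386 detected genes (1.43%), and of Bra038734 for 392 (1.45%). *BrMPSR1-1* had a ratio of Kenshin to Chiifu of 0.580 (0.584 with 50 added) at 22 °C, and 11.7% of the detected genes had a ratio as low or lower. None of the 3 genes was 2-fold lower in Kenshin, while 8.83%, 7.16% and 8.28% of the detected genes were so at 22, 12 and 28 °C.

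After 2 days at 12 °C the excess of the *BrHSP70* pair in Kenshin was smaller but still past the cutoff. The ratio of Kenshin to Chiifu was 2.68 for Bra001457 (2.65 with 50 added) and 3.53 for Bra038734 (3.43 with 50 added). Again 2 of the 3 genes passed a 2-fold excess, against 5.18% of the detected genes. *BrMPSR1-1* had a ratio of 0.919 (0.922 with 50 added).

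At 28 °C none of the 3 genes reached a 2-fold excess in Kenshin, which 10.3% of the detected genes did. The ratio of Kenshin to Chiifu was 1.61 for Bra001457, 0.965 for Bra038734 and 1.03 for *BrMPSR1-1*, and with 50 added these ratios were the same to the digits given. Both *BrHSP70* copies thus passed the cutoff at 22 and 12 °C and stayed under 2-fold either way at 28 °C. This combination, noted after the values were seen, was met by 197 detected genes (0.731%).

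**Figure D2:**
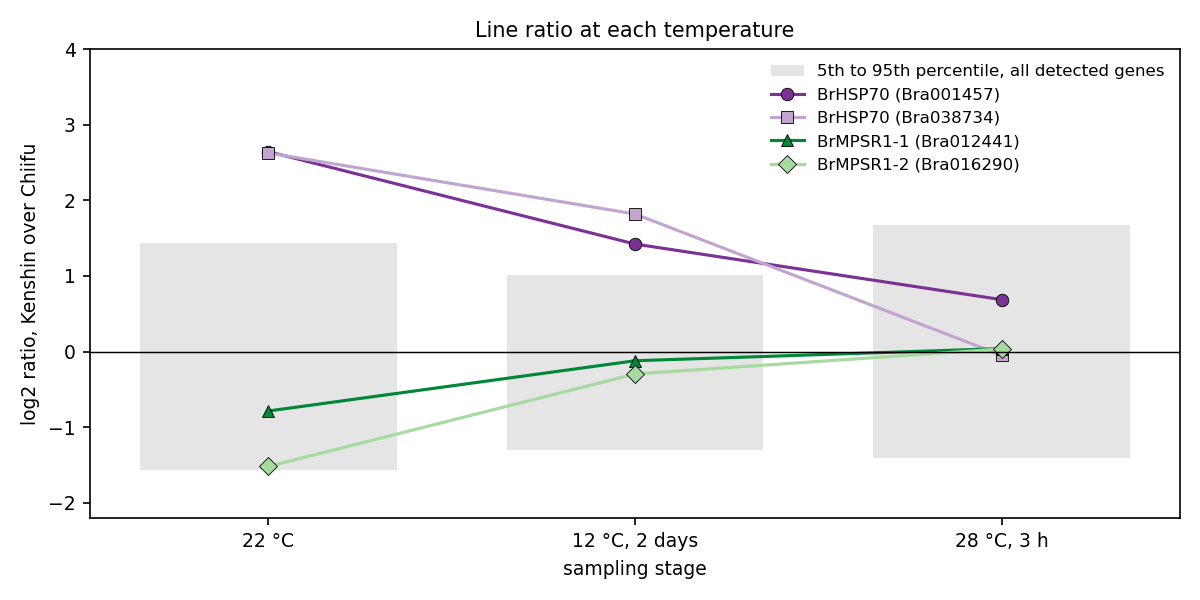
Log2 ratio of PI in Kenshin over Chiifu at each sampling stage, with 1 sample per line behind each point. Grey boxes span the 5th to the 95th percentile of all 26948 detected genes. The *BrHSP70* copies start at 2.65 and 2.63, above the box, and end at 0.69 and -0.05 inside it, whereas the *BrMPSR1* copies start below 0 and end near 0.

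A line difference shared by the 3 temperatures was estimated with limma, in a fit of line and temperature to log2 PI of all detected genes. The residual scatter of this fit is the difference between lines in their change by temperature, and it leaves 2 residual degrees of freedom, so its standard errors are not errors between replicates. The estimate, Kenshin minus Chiifu, was 1.58 for Bra001457 (standard error 0.41, 95% interval 0.48 to 2.69, adjusted p = 0.1225 by limma with Benjamini-Hochberg adjustment). For Bra038734 it was 1.47 (standard error 0.56, interval -0.03 to 2.96, limma adjusted p = 0.2395). Neither passed the threshold of 0.05, which 6.56% of the detected genes did. With an intensity trend in the variance model, Bra001457 passed, with an adjusted p of 0.0475 by limma. For *BrMPSR1-1* the estimate was -0.29 (standard error 0.22, interval -0.89 to 0.31, limma adjusted p = 0.528).

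By low temperature (LT), the step from 22 to 12 °C, the *BrHSP70* copies were lower in Kenshin, while in Chiifu Bra001457 was higher and Bra038734 little changed. In Kenshin at 12 °C, Bra001457 had 0.690 and Bra038734 0.631 of its PI at 22 °C. In Chiifu at 12 °C, Bra001457 was 1.61-fold and Bra038734 1.10-fold its PI at 22 °C. The change of Bra038734 there was under the median absolute change of all detected genes, 1.23-fold. None of the 3 genes was 2-fold higher at 12 °C, which 5.8% of the detected genes were in Kenshin and 5.36% in Chiifu, and opposite directions of any size were found for 37.3% of the detected genes. On the log2 scale the change in Kenshin minus that in Chiifu was -1.22 for Bra001457, a difference as low or lower in 4.98% of the detected genes, and -0.81 for Bra038734 (9.89%). With a single value for each line and temperature, a difference between the lines in the response to LT was not tested.

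*BrMPSR1-1* was lower at 12 °C than at 22 °C in both lines. The ratio of 12 to 22 °C was 0.533 in Kenshin (0.542 with 50 added) and 0.336 in Chiifu (0.343 with 50 added). A level at least 2-fold lower was thus found for 0 of the 3 genes in Kenshin, against 6.99% of the detected genes, and for 1 of the 3 in Chiifu, against 5.01%. A ratio as low or lower occurred in 8.07% of the detected genes in Kenshin and in 1.68% in Chiifu. The change by LT shared by the lines was -1.24 on the log2 scale (standard error 0.27, 95% interval -1.97 to -0.51, limma adjusted p = 0.234). For the *BrHSP70* pair, where the changes differed in sign between the lines, the shared estimates were 0.08 for Bra001457 and -0.26 for Bra038734, with limma adjusted p values of 0.965 and 0.903.

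By warming, from 12 to 28 °C, all 3 genes passed 2-fold in Chiifu, while in Kenshin *BrMPSR1-1* did and the *BrHSP70* pair did not. In Chiifu PI at 28 °C was 3.22-fold that at 12 °C for Bra001457, 6.79-fold for Bra038734 and 4.43-fold for *BrMPSR1-1*, and with 50 added the ratios were 3.18, 6.55 and 4.32. All 3 were past 2-fold in Chiifu, compared with 6.96% of the detected genes. In Kenshin the ratio of 28 to 12 °C was 1.94 for Bra001457, 1.86 for Bra038734 and 4.96 for *BrMPSR1-1*, and with 50 added it was 1.93, 1.85 and 4.82. Only *BrMPSR1-1* was past 2-fold in Kenshin (1 of the 3 genes, against 7.26% of the detected genes), while the *BrHSP70* copies lay just under the cutoff. None was 2-fold lower by warming, as 6.52% of the detected genes were in Kenshin and 10.2% in Chiifu. Ratios at least as high as that of *BrMPSR1-1* were found for 1.07% of the detected genes in Kenshin and 0.828% in Chiifu. It was among the 835 genes (3.1% of those detected) that passed 2-fold by warming in both lines. The study describes *HSP70*, a warming gene known from *Arabidopsis*, as strongly expressed in every sample and without a marked rise by warming. For the *BrHSP70* pair, ratios were under 2-fold in Kenshin, but those of 3.22 and 6.79 in Chiifu go against this description.

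The warming response was similar in size in the lines for *BrMPSR1-1* and furthest apart for Bra038734. On the log2 scale the change in Kenshin minus that in Chiifu was 0.16 for *BrMPSR1-1*, -0.74 for Bra001457 and -1.87 for Bra038734. A difference as low as that of Bra038734 or lower occurred in 308 detected genes (1.14%), and one as low as that of Bra001457 or lower in 11.2%. None of these differences was tested. In the limma fit the change shared by the lines was 2.23 for *BrMPSR1-1* (standard error 0.27, 95% interval 1.50 to 2.96), with an unadjusted p of 0.00082 and an adjusted p of 0.0982, and 0.813% of the detected genes had an unadjusted p as small. With an intensity trend in the variance model its limma adjusted p was 0.0304, past the threshold. For the *BrHSP70* pair the shared changes by warming were 1.32 for Bra001457 (standard error 0.50, limma adjusted p = 0.277) and 1.83 for Bra038734 (standard error 0.68, limma adjusted p = 0.271). No gene passed the threshold for warming in limma without the trend (0.0%), where 4965 genes had an unadjusted p under 0.05.

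Minor warming compared 28 with 22 °C and shares the 28 °C samples with warming and the 22 °C samples with LT. In Kenshin PI at 28 °C was 1.34-fold that at 22 °C for Bra001457 and 1.17-fold for Bra038734, so the pair ended close to where it had started. In Chiifu it was 5.19-fold for Bra001457 (5.06 with 50 added) and 7.50-fold for Bra038734 (7.20 with 50 added), changes reached or exceeded by 130 and 65 detected genes (0.482% and 0.241%). For *BrMPSR1-1* the order of the lines was reversed, with 2.64-fold in Kenshin (2.61 with 50 added) and 1.49-fold in Chiifu. A level at least 2-fold higher was thus found for 1 of the 3 genes in Kenshin, against 6.27% of the detected genes, and for 2 of the 3 in Chiifu, against 5.69%. None was 2-fold lower, as 7.34% were in Kenshin and 8.51% in Chiifu.

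The change by minor warming in Kenshin minus that in Chiifu was -1.96 for Bra001457 and -2.68 for Bra038734 on the log2 scale, and 0.83 for *BrMPSR1-1*. Values as low or lower were found for 2.14% and 0.902% of the detected genes, and a value at least as high as that of *BrMPSR1-1* for 12.7%. By construction, each of these values is also the log2 line ratio at 28 °C minus that at 22 °C. The shared changes by minor warming in the limma fit were 1.40 for Bra001457 (standard error 0.50, adjusted p = 0.306), 1.57 for Bra038734 (standard error 0.68, adjusted p = 0.359) and 0.99 for *BrMPSR1-1* (standard error 0.27, adjusted p = 0.251). In limma 0 genes (0.0%) passed the threshold for minor warming and 0 for LT, with 4297 and 3429 genes at an unadjusted p under 0.05.

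**Figure D3:**
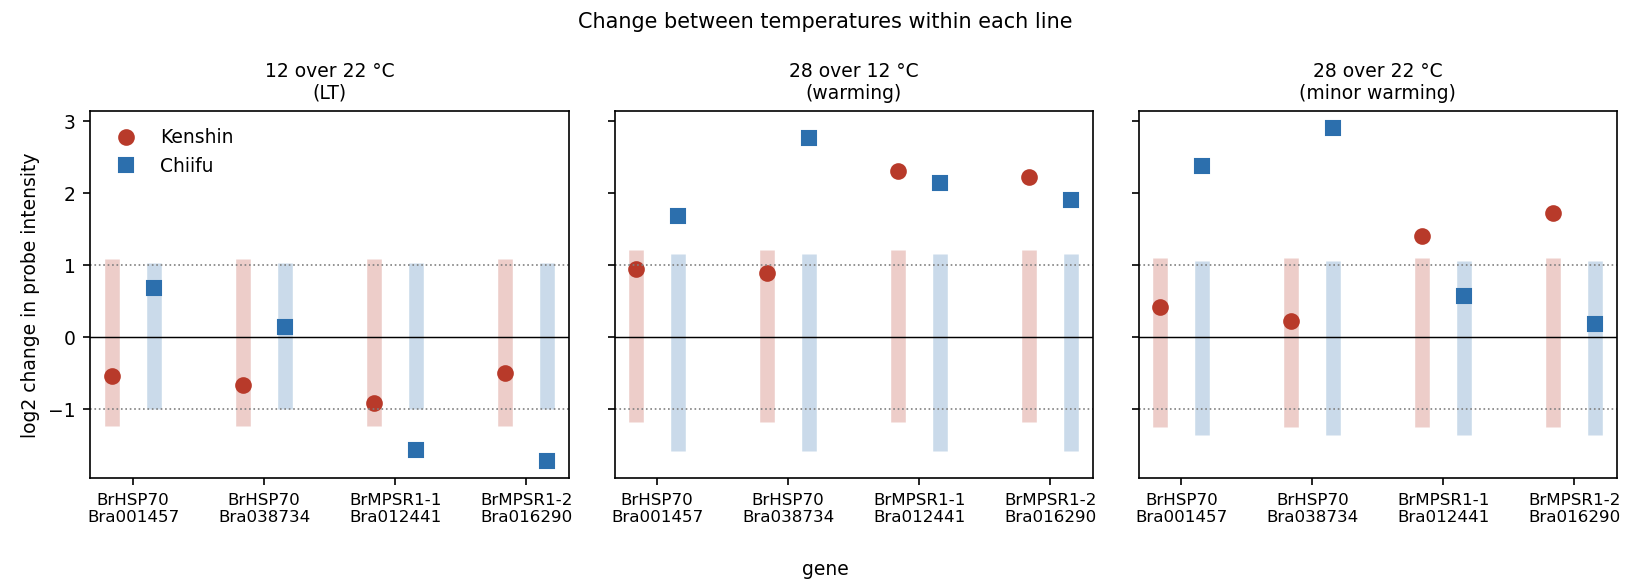
Log2 change in PI between temperatures for each gene, with Kenshin as red circles and Chiifu as blue squares and 1 sample behind each PI. Shaded bars span the 5th to the 95th percentile of all detected genes of the same line and comparison, and dotted lines mark 2-fold. By minor warming the *BrHSP70* pair stands at 2.38 and 2.91 in Chiifu, above the bar, against 0.42 and 0.23 in Kenshin, while *BrMPSR1-1* stands at 1.40 in Kenshin and 0.58 in Chiifu.

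The *BrHSP70* copies kept nearly the same course in Kenshin and parted in Chiifu. In Kenshin the fold of Bra038734 divided by that of Bra001457 was 0.914 by LT, 0.959 by warming and 0.877 by minor warming. In Chiifu it was 0.686 by LT, 2.11 by warming and 1.44 by minor warming. Bra038734 thus had the larger change at 28 °C in Chiifu and the smaller one at 12 °C. Whether the probes separate the copies fully was not tested.

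How alike the courses were was measured by the root mean square difference over the 6 samples in log2 PI, after each gene was centred on its own mean, a description with 6 points per gene. Between Bra001457 and Bra038734 it was 0.32, and only 1 of the other 26947 detected genes was closer to Bra038734, while 5 were closer to Bra001457. The median over all other detected genes was 1.13 for Bra001457 and 1.26 for Bra038734. Closest to Bra001457 were Bra036537 (0.28) and Bra004567 (0.29), and closest to Bra038734 apart from its partner were Bra013547 (0.31) and Bra020906 (0.33). *BrMPSR1-1* lay 1.23 and 1.20 from the *BrHSP70* copies, and 79.0% and 77.1% of the detected genes were at least that close to it. Seen from Bra001457, 68.0% of the detected genes were at least as close as *BrMPSR1-1*. Seen from Bra038734 it was only 37.3%, with *BrMPSR1-1* closer than the median gene. Closest to *BrMPSR1-1* were Bra021101 (0.14) and Bra035625 (0.15). The PI of Bra021101 was 2794, 1146 and 6927 in Kenshin and 4594, 1590.1 and 5919.7 in Chiifu at 22, 12 and 28 °C. The sources used here give these 6 genes no name or function.

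The study names a second *MPSR1* copy, *BrMPSR1-2* (Bra016290), and its course was close to that of *BrMPSR1-1*. Its PI in Kenshin was 2674 at 22 °C, then 1891 after the cold and 8894 after warming, and in Chiifu it was 7671, 2322 and 8680.3 at the same stages. The lines again met at 28 °C, with a ratio of Kenshin to Chiifu of 1.02, and were furthest apart at 22 °C, with a ratio of 0.349. By warming it was 4.70-fold higher in Kenshin and 3.74-fold higher in Chiifu, with a shared log2 change of 2.07 (standard error 0.43, limma adjusted p = 0.142). By minor warming its ratio was 3.33 in Kenshin and 1.13 in Chiifu. The root mean square difference between the *MPSR1* copies was 0.23, and 9 of the 26947 other detected genes were closer to *BrMPSR1-1*.

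To set the 3 genes among their pathway, 31 further genes were taken from those the study names, namely 7 large chaperones and co-chaperones, 21 small heat shock proteins (HSPs), 2 heat shock factors and *BrMPSR1-2*. The study chose them with values of these samples in view, so their direction is not independent evidence. Of the 31 genes 30 were detected, the exception being *BrROF1* (Bra013224), with a PI of at most 59.1. By warming, 21 of the 30 passed 2-fold upward in Kenshin and 20 in Chiifu, against 7.26% and 6.96% of the detected genes. None of the 30 passed downward, against 6.52% in Kenshin and 10.2% in Chiifu. The median log2 change of the list by warming was 1.70 in Kenshin and 1.62 in Chiifu, against 0.005 and 0.04 over all detected genes. By minor warming 24 of the 30 passed 2-fold upward in Kenshin and 19 in Chiifu, against 6.27% and 5.69% of the detected genes. The median log2 changes were 1.47 in Kenshin and 1.32 in Chiifu, against 0.04 and 0.01 over all detected genes.

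Within this list the *BrHSP70* pair had a high line ratio at 22 °C and a small change by minor warming in Kenshin. At 22 °C, 2 of the 30 list genes had a higher ratio of Kenshin to Chiifu than either *BrHSP70* copy. A 2-fold excess in Kenshin was passed by 15 of the 30, against 8.55% of the detected genes. Many list genes were selected by the study for a level over 2-fold higher in Kenshin at 22 °C. That count was thus largely set by the choice of the list and is no evidence about it. By minor warming in Kenshin, 28 of the 30 had a larger ratio than Bra001457 and 29 had a larger one than Bra038734, whereas in Chiifu 9 and 8 did. By warming in Kenshin, 21 and 22 of the 30 had a larger ratio than Bra001457 and Bra038734, and by LT in Kenshin 18 and 19 did. *BrMPSR1-1* lay in the middle of the list by minor warming in Kenshin, with 15 of the 30 above it, and low in Chiifu, with 26 above it. By warming in Chiifu 7 of the 30 exceeded it, and 12 did in Kenshin. These positions are descriptions of 1 sample per condition and were not tested.

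By role, the disaggregases had warming ratios from 1.57 to 2.45, and only *BrHSP98.7* lay near the cutoff of 2-fold in both lines. The *BrHSP101* gene Bra003807 was 1.61-fold higher by warming in Kenshin and 2.45-fold in Chiifu, and Bra015922 was 1.57-fold and 1.65-fold higher. *BrHSP98.7* (Bra007816), a CLPB4-type disaggregase, was 1.91-fold higher in Kenshin and 1.93-fold in Chiifu by warming, and its line difference of 0.91 (standard error 0.15) passed the threshold (limma adjusted p = 0.044). That call was lost with quantile normalization, median scaling, no intensity minimum or an intensity trend, with limma adjusted p values of 0.0505, 0.0517, 0.103 and 0.0679. An HSP70 family gene of another type, Bra038496, had a warming ratio of 0.720 in Kenshin and 1.22 in Chiifu, unlike the pair. By minor warming its log2 change was 0.002 in Kenshin and 0.98 in Chiifu, so there it shared the direction of the line difference. That difference was -0.98, a value as low or lower in 7.79% of the detected genes. The J-domain gene Bra027363 was 2.84-fold higher by warming in Kenshin and 2.52-fold in Chiifu. The immunophilin *BrROF2* (Bra037477), a co-chaperone of the FKBP type, had a PI of 1632, 352 and 6607 in Kenshin and of 309, 283 and 4967 in Chiifu at 22, 12 and 28 °C, the largest warming ratio among the large chaperones in both lines.

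The heat shock factor genes were higher at 28 °C in both lines. By warming *BrHSFA2* (Bra000557) was 3.29-fold higher in Kenshin and 5.64-fold in Chiifu, and *BrHSFB2A* (Bra029292), a class B factor, 6.50-fold and 8.47-fold. Their ratios of Kenshin to Chiifu at 22 °C were 3.78 and 2.27, below those of the *BrHSP70* pair. Of the 21 small HSP genes, 16 passed 2-fold upward by warming in Kenshin and 14 in Chiifu, against 7.26% and 6.96% of the detected genes. Their ratios ran from 0.786 to 88.5 in Kenshin and from 1.14 to 15.3 in Chiifu. The ratio of 88.5 rested on a PI of only 57.8 at 12 °C and was 47.9 with 50 added.

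**Figure D4:**
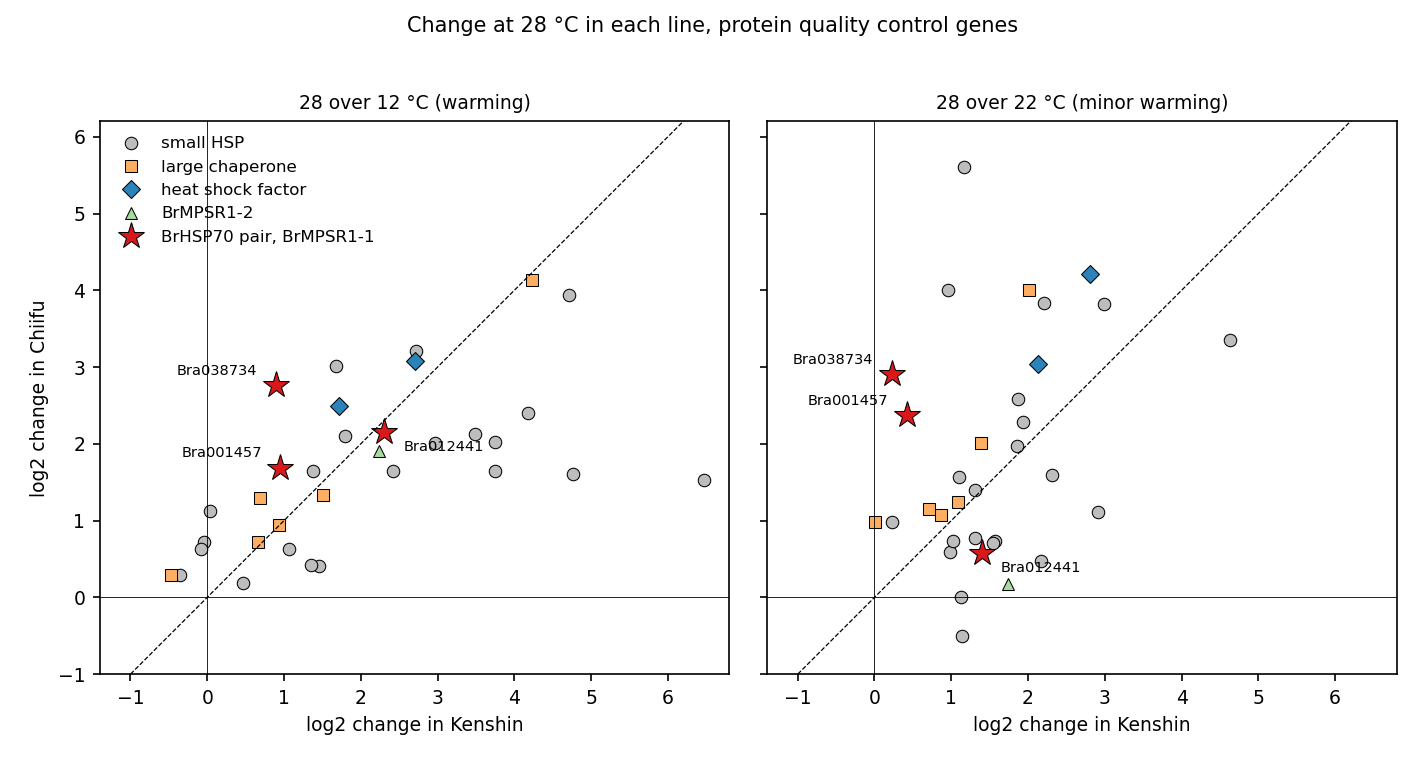
Log2 change in PI in Kenshin (horizontal axis) and Chiifu (vertical axis) by warming and by minor warming, for the *BrHSP70* pair and *BrMPSR1-1* (red stars) and the 30 detected genes of the list, with 1 sample behind each PI. On the dashed line the lines change equally. The *BrHSP70* pair lies far above it by minor warming, with log2 changes of 0.42 and 0.23 in Kenshin and 2.38 and 2.91 in Chiifu, while *BrMPSR1-1* lies near it by warming, at 2.31 in Kenshin and 2.15 in Chiifu.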

How the data were processed

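The authors hybridised Cy3-labelled shoot RNA to the NimbleGen Br135K array and deposited linear intensity values, 1 per gene and sample, for 41173 genes and 15 control features. RMA is named in the submitters' processing notes, with no role given, and the methods describe a background correction without its details. The study speaks of mean values of repeats, and the labels do not say whether a column is 1 array or such a mean. Quartiles were nearly equal between samples. The number of arrays limits the precision.

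Intensities were used as deposited. Genes with an intensity over 500 in at least 1 sample were tested. Ratios within a line or temperature have 1 sample per side and no test. Shared changes were estimated in R 4.3.3 with limma 3.58.1 (log2 intensity fitted by lmFit and eBayes, line and temperature as terms, Benjamini-Hochberg over 26948 genes, two-sided, threshold 0.05, 2.36 prior degrees of freedom). The fit was tested on simulated data. Ratios and counts were computed with pandas 2.3.3 and numpy 2.4.6 under Python 3.11.15, and plots were drawn with matplotlib 3.10.9. Alternatives were 50 added to each intensity, quantile normalization, median scaling, other intensity minimums, an intensity trend, and a 3-fold cutoff.

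The members and lists were chosen with earlier results of these data known. The genes named are the 3 genes, *BrMPSR1-2*, *BrACT2*, the large chaperones, the heat shock factors and, for each of the 3, the 2 other genes with the most similar course. The RefSeq gene table used here lists 1 of the 41173 identifiers and none of the 3, so no positions or sequences are given.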

Additional observations from a re-analysis of the deposited data

Results flagged for a closer look

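By LT the *BrHSP70* copies changed in opposite directions in the lines. For Bra001457 the log2 change was -0.54 in Kenshin and 0.69 in Chiifu, a difference of -1.22. For Bra038734 it was -0.66 in Kenshin and 0.14 in Chiifu, a difference of -0.81. The Chiifu change of this copy was under the median absolute log2 change of all detected genes there, 0.30. With 1 sample per line and temperature the difference was not tested, and 37.3% of the detected genes also changed in opposite directions by LT.

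Among the control features not used in any comparison, a feature of the *sGFP* and *Bar* marker genes read 1517 in Chiifu at 28 °C, against 30.5 for the control of random sequence in the same sample. The *BrHSP70* and *BrMPSR1-1* values there were 8099, 7871 and 6769.5.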

How the results depend on the processing

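The ratios of the 3 genes kept their side of 2-fold, and moved by less than 1.5 times, in all 81 combinations with 50 added, quantile normalization or median scaling. The ratio of Kenshin to Chiifu of *BrMPSR1-1* at 28 °C, 1.03, was 0.959 with median scaling, and no other of these ratios crossed 1. The limma estimates kept their side of 0.05 in 70 of 72 combinations. With an intensity trend, *BrMPSR1-1* passed for warming (log2 change 2.23, adjusted p 0.0304 by limma, range over settings 0.0304 to 0.227) and Bra001457 passed for the line difference (1.58, limma adjusted p 0.0475, range 0.0475 to 0.190). The trend also raised the genes passing from 0 to 460 for warming, to 3 for minor warming and to 50 for LT. Without an intensity minimum, which tested more genes, 1091 genes passed for the line difference in place of 1768. A 3-fold cutoff lowered these list counts: by LT in Kenshin 1 gene upward in place of 6 and 6 downward in place of 10, by minor warming in Kenshin 13 upward in place of 24, and for Kenshin over Chiifu 7 higher in place of 15 and 1 lower in place of 3 at 22 °C, 1 higher in place of 5 at 12 °C, and 3 higher in place of 9 at 28 °C. The limma fit compares temperatures within lines, since line is a term. The labels give no replicate numbers to pair samples by, and no replicate could be left out. The lowest value of the 3 genes, 1049 for Bra038734 in Chiifu at 22 °C, stands against 726 for the highest marker feature in the same sample.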
